A study of Homo sapiens with 12 samples.

Results

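The 42 genes described here build the actin cytoskeleton, regulate transcription in response to it, or are targets of that regulation. They were taken by gene symbol and all 42 were found among the 60612 named rows of the table of counts per gene. By role they comprised 2 cytoplasmic actins, 4 proteins that bind actin monomers or turn filaments over, 3 subunits for nucleation and capping, 7 crosslinking and bundling proteins, 4 tropomyosins, 7 chains of non-muscle myosin II, 4 adhesion and membrane linkers, 4 transcriptional regulators and 7 target genes of YAP and TEAD. They were chosen by function, with earlier results of these data known, and no measured value is part of the rule. In GENCODE 44, exons of 23 members overlap exons of another gene on the opposite strand and those of 8 on the same strand, and without a stated strand setting such reads cannot be told apart.

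RNA was sequenced from ZR751, an oestrogen receptor-positive human breast cancer cell line, in a design that crossed loss of the retinoblastoma gene with CDK4/6 inhibition. The sgControl cells carried a control guide, and the RB1 knockout (RB1KO) cells were made with Cas9 and guides to RB1. Each genotype received DMSO, the solvent, or 500 nM abemaciclib, a CDK4/6 inhibitor, for 5 days, giving 4 groups (sgControl DMSO, sgControl abemaciclib, RB1KO DMSO and RB1KO abemaciclib) of 3 libraries each. Edited cells were sorted singly and grown out, and the number of clones behind each genotype is not given in the sources used here, so a difference between clones and the loss of RB1 cannot be told apart. The study's methods describe RNA-seq replicates as biologically independent.

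Actin exists as monomers and filaments, and the balance between them is set by proteins that bind monomers, seed, cap, cut and crosslink filaments. The same balance feeds back on transcription. MRTF cofactors are held back by actin monomers and, once released, activate the serum response factor SRF at CArG boxes in the promoters of actin and actin-binding genes. Filament tension also favours the entry of YAP into the nucleus, where it acts with TEAD factors on genes such as CCN1 and CCN2. In luminal breast cells the cortical filaments, the ezrin linkers and non-muscle myosin II maintain the epithelial shape.

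The libraries held 39907318 to 81636393 counts. RB1, the edited gene, had 4154 to 4825 normalised counts in sgControl DMSO and 2252 to 2489 in sgControl abemaciclib, against 39.6 to 51.2 and 44.2 to 63.5 in the corresponding RB1KO groups. Luminal markers were high, with KRT8 at 206699 counts or more in every library, and the 8 luminal genes took 1.48%, 1.32%, 1.63% and 1.85% of all counts on average in sgControl DMSO, sgControl abemaciclib, RB1KO DMSO and RB1KO abemaciclib. Single luminal genes differed between genotypes in both directions. In abemaciclib, KRT8, KRT18 and CDH1 were called higher in RB1KO cells and ESR1, GATA3, FOXA1 and KRT19 lower. In DMSO, KRT18 and CDH1 were higher there and ESR1, FOXA1 and EPCAM lower. Of the 8 fibroblast and mesenchymal markers, VIM had at most 4 counts, COL1A2 at most 2 and COL3A1 at most 1 in any library. In the same order of groups that list averaged 57.0, 60.4, 50.5 and 77.4 CPM, or counts scaled to a common total, mainly from COL1A1 and CDH2, and was highest in RB1KO abemaciclib. The list did not move as one. Of the 5 tested between genotypes in abemaciclib, CDH2 was called higher in RB1KO cells and COL1A1, DCN and LUM lower. The 8 smooth muscle and myoepithelial markers took 12.6 to 16.9 CPM in the sgControl libraries and 19.0 to 26.5 CPM in the RB1KO libraries, mainly from ACTA2 and OXTR, and CNN1, DES, KRT5, KRT14 and TP63 never exceeded 6 counts. Between genotypes in abemaciclib, ACTA2 was called higher in RB1KO cells and OXTR lower.

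The first sgControl DMSO library stood apart from the other two of its group by transcript length. It was the highest of the 3 for 13 of the 14 members whose canonical transcript is under 2000 bases, with a median difference of 0.29 on the log2 scale, and the lowest for 7 of the 10 members of 5000 bases or more, with a median difference of -0.27. Without it, the response of sgControl cells to abemaciclib gave 11 members higher and 19 lower, against 10 and 17 with it. TMSB10 then gained a call as higher (log2 fold change 0.24) and FLNA (-0.28), YAP1 (-0.21) and TEAD1 (-0.37) gained calls as lower, while the call of MYL9 was lost (-0.96). The interaction gave 16 higher and 9 lower without it, against 14 and 6 with it. FLNA (0.31) and TEAD1 (0.35) were then called higher, and CNN2 (-0.32), MYL6 (-0.38) and MYL12B (-0.32) lower. In DMSO, TAGLN2 (0.30) and TPM3 (0.16) became higher in RB1KO, and in abemaciclib ARPC2 (0.15) did. In the response of RB1KO cells, ACTG1 (-0.21), CFL1 (-0.21) and EZR (-0.09) became lower, making 8 members in place of 5.

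Together the 42 genes took 2.20% ± 0.10 of all counts in sgControl DMSO (SD, n = 3) and 1.58% ± 0.05 in sgControl abemaciclib. In RB1KO cells the corresponding shares were 2.49% ± 0.04 and 2.37% ± 0.04. The 3 sgControl abemaciclib libraries held the lowest shares, 1.53% to 1.62%, and no other library was below 2.09%. ACTB and ACTG1 alone took 0.863% ± 0.051 in sgControl DMSO, 0.494% ± 0.034 in sgControl abemaciclib, 1.03% ± 0.02 in RB1KO DMSO and 0.909% ± 0.048 in RB1KO abemaciclib. In bulk RNA, fewer cells of a type and less RNA per cell cannot be told apart.

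**Figure D1:**
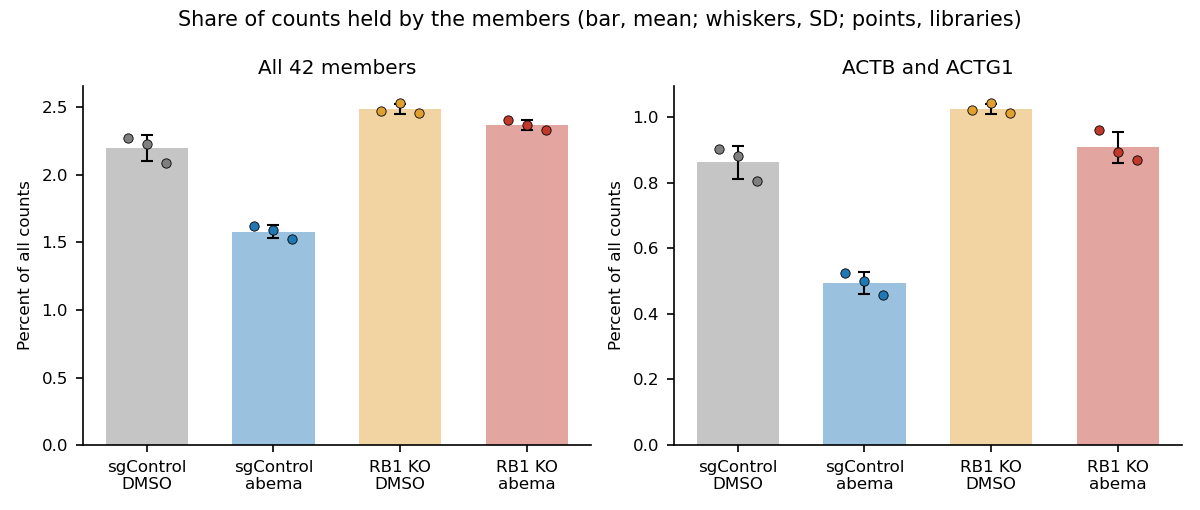
Percent of all counts held by the 42 members (left) and by ACTB with ACTG1 (right) in each library, with 4 groups on the x axis, bars for means, whiskers for SD (n = 3) and points for libraries. The sgControl abemaciclib group is the lowest in both panels, at means of 1.58% and 0.494%.

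In sgControl cells, abemaciclib raised 10 members and lowered 17 (DESeq2 Wald test across all genes, Benjamini-Hochberg adjusted p under 0.05, which defines a call throughout). Over the 22885 genes tested, 24.8% were called higher and 24.6% lower, so the members called lower, 40.5% of 42, were above the background share and those called higher, 23.8%, were close to it. The median log2 fold change of the members was -0.08, against 0.02 over all genes. In 25 of the 42 the groups did not overlap, near the 55.5% of all genes tested for which they did not. Scaling by total counts moved the median of all genes by -0.13 and gave 8 members higher and 22 lower. CNN2 (0.11) and MYL6 (0.19) were then no longer called. TEAD1 (-0.36), FLNA (-0.32), MSN (-0.18), ACTN4 (-0.16) and ZYX (-0.15) gained calls as lower. The members called lower were both actins, CFL1, PFN1, ARPC2, ARPC5, TAGLN2, TPM3, TPM4, MYH10, MYL9, MYL12A, EZR, SRF, CCN2, AJUBA and AXL, and those called higher were CAPZB, ACTN1, TAGLN, CNN2, CNN3, MYH14, MYL6, MYL12B, MRTFA and CCN1.

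In RB1KO cells the same drug raised 7 members and lowered 5, against 15.0% higher and 15.1% lower among 18506 genes tested, and the members' shares, 16.7% and 11.9%, were near that background. The members called lower numbered 10 when only the compared groups were fitted. Scaling by total counts ended the calls of SRF (-0.16) and VCL (-0.21) as lower and added those of ACTG1 (-0.21) and CFL1 (-0.21). The difference between the responses of the genotypes was tested as an interaction, in which a positive value is a response that was higher in RB1KO than in sgControl cells. There 14 members were called higher and 6 lower, where 21.0% of 21008 genes were higher and 20.2% lower. The members' shares were 33.3% and 14.3%, and their median interaction was 0.19, against 0.03 over all genes. Scaling by total counts moved the median of all genes by 0.14 and gave 19 members higher and 6 lower. It added TMSB10 (0.47), FLNA (0.35), ARPC2 (0.34), CFL1 (0.33) and SRF (0.28) as higher. Of the 42 members, 10 were lower in sgControl cells, not called in RB1KO cells and called positive in the interaction: ACTB, ACTG1, PFN1, ARPC5, TAGLN2, TPM3, MYH10, MYL12A, EZR and AXL. Of the 18506 genes tested in all 3, 13.8% had this pattern. With only the compared groups fitted, ACTB (-0.16), ACTG1 (-0.22) and EZR (-0.10) were also called lower in RB1KO cells and so left it. A further 11 were called in none of these 3 tests: ACTN4, FLNA, TPM1, TPM2, MYH9, ZYX, MSN, YAP1, TEAD1, AMOTL2 and LATS2. Of these, ACTN4, FLNA, ZYX, MSN and TEAD1 were called lower in sgControl cells with scaling by total counts. FLNA was also called lower there with a replicate block (-0.18).

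**Figure D2:**
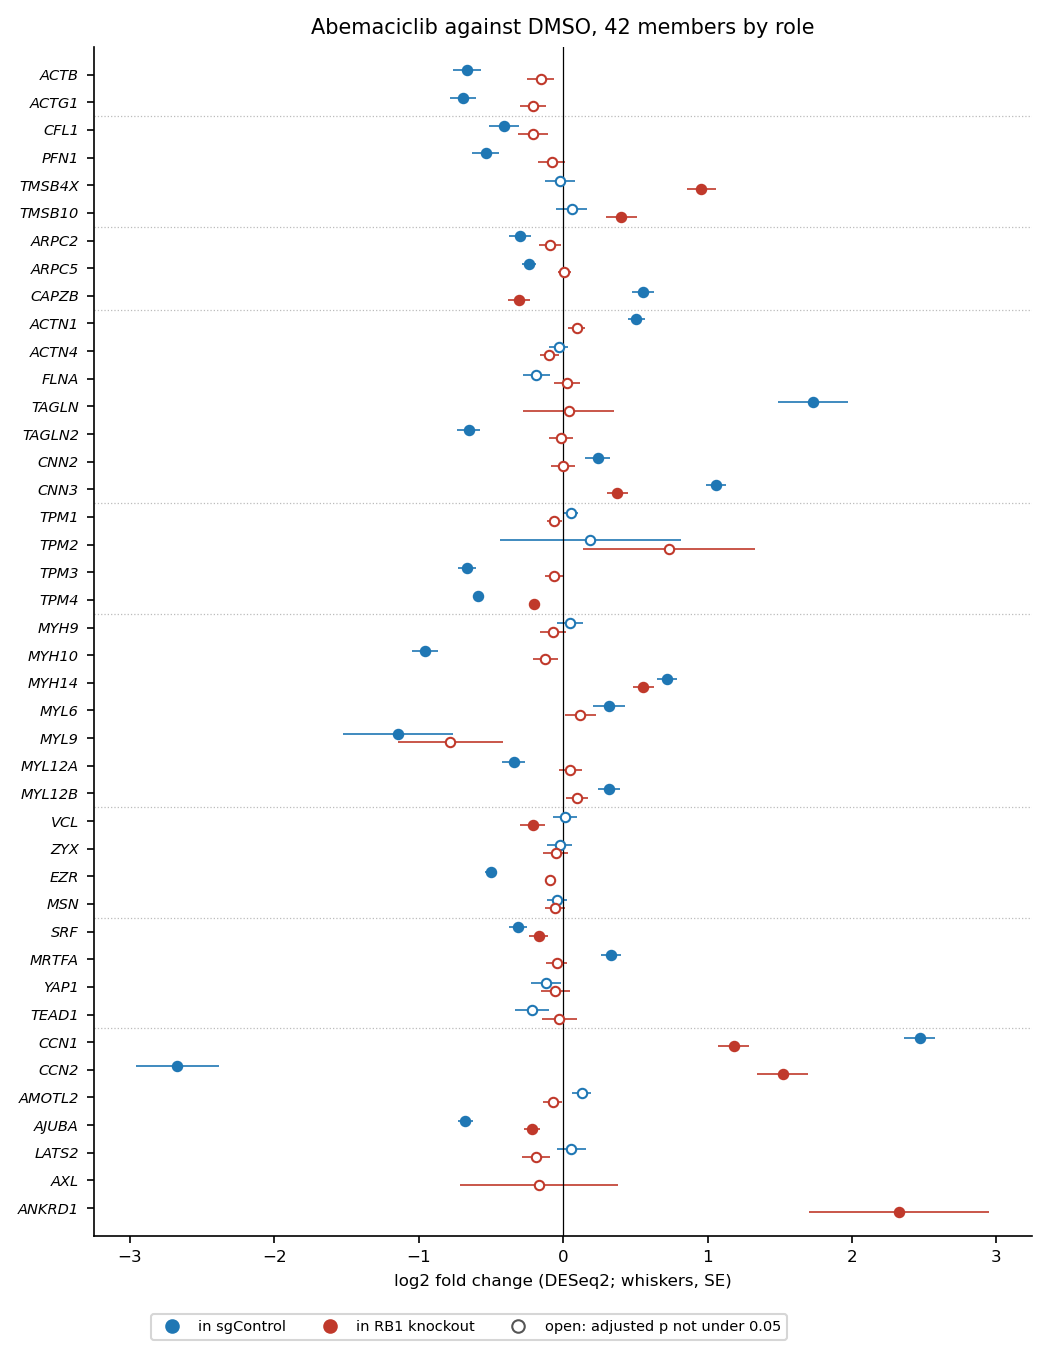
Log2 fold change of abemaciclib against DMSO for the 42 members, grouped by role between dotted lines, in sgControl (blue) and RB1KO (red) cells, with whiskers for the SE and open circles where the adjusted p was not under 0.05. AXL and ANKRD1 have no sgControl point because a group was at the counting floor, and CCN2 shows the widest separation, -2.67 against 1.52.

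Between genotypes, RB1KO cells in DMSO had 19 members higher and 6 lower than sgControl cells, which is 45.2% and 14.3% of the members, with 16.2% and 15.2% of 19757 genes called in these directions. In abemaciclib 25 members were higher and 8 lower, or 59.5% and 19.0%, with 27.5% and 26.4% of 22260 genes. With scaling by total counts these became 18 and 6 in DMSO and 30 and 5 in abemaciclib, where the median of all genes moved by 0.11. That scaling ended the calls of VCL (0.25) and EZR (0.08) in DMSO and of ACTN1 (-0.02), MYL6 (-0.15) and TPM1 (-0.05) in abemaciclib. It added calls as higher for TAGLN2 (0.18) in DMSO and, in abemaciclib, for CFL1 (0.21), ARPC2 (0.26), ARPC5 (0.13), CNN2 (0.25) and MYL9 (0.91). The members' median difference was 0.15 in DMSO and 0.27 in abemaciclib, against 0.00 and 0.02 over all genes. Fibroblast, smooth muscle and luminal marker levels also differed between genotypes, as given above, and their part in these differences was not tested. The 2 genotype comparisons and the 2 drug comparisons share their libraries pairwise, so they are not independent of each other.

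**Figure D3:**
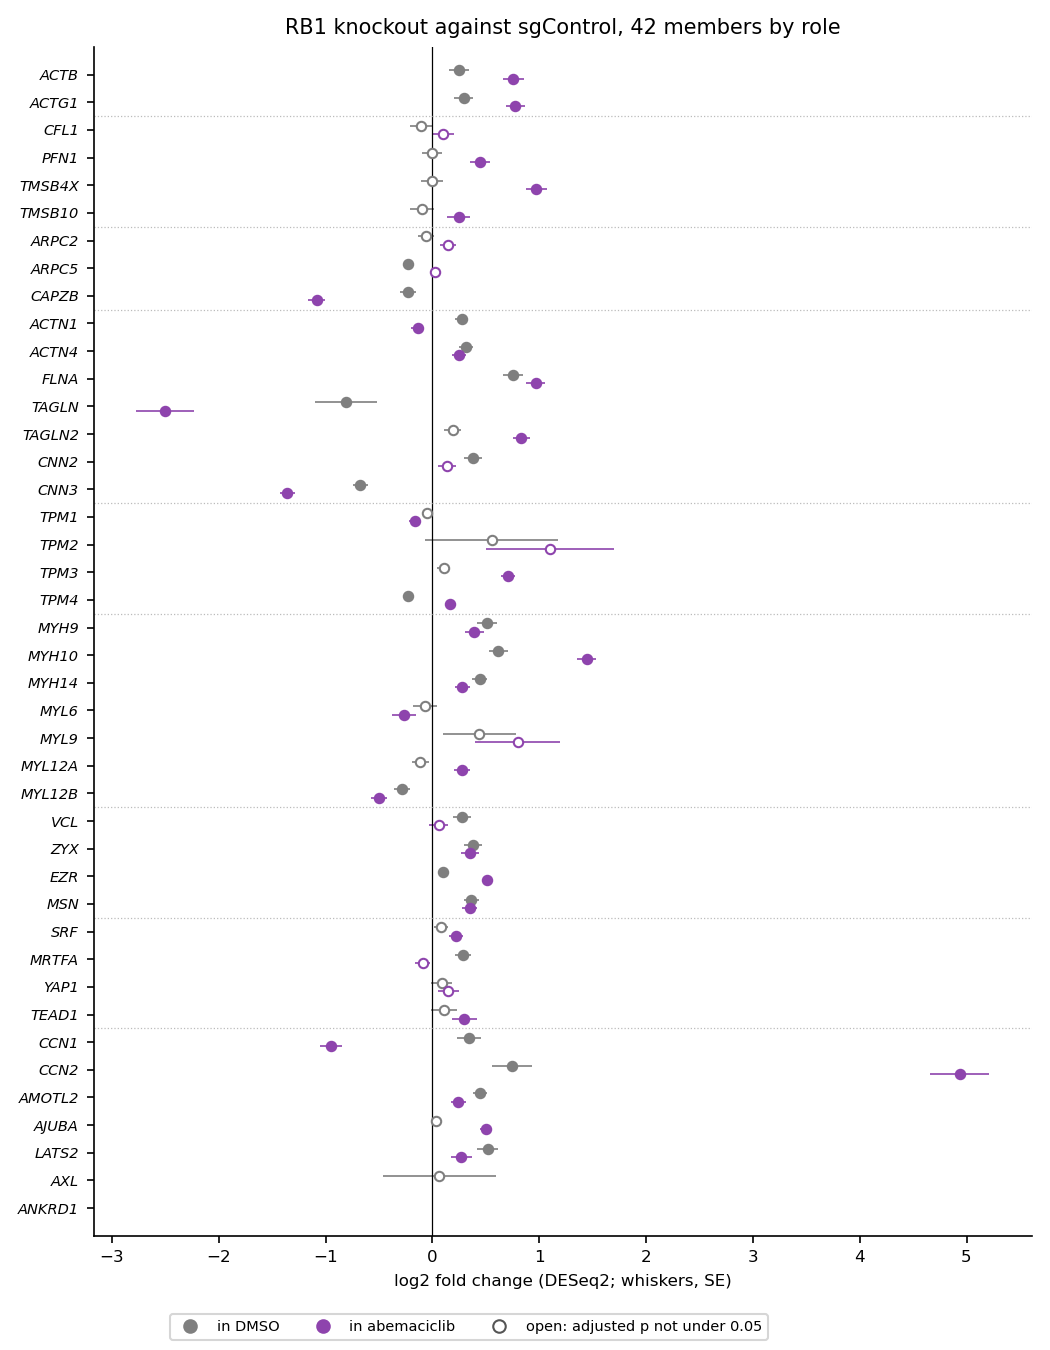
Log2 difference between RB1KO and sgControl cells for the 42 members in DMSO (grey) and in abemaciclib (purple), grouped by role, with whiskers for the SE and open circles where the adjusted p was not under 0.05. Comparisons with a group at the counting floor (ANKRD1 in both media, AXL in abemaciclib) are left out, and CCN2 in abemaciclib lies farthest to the right at 4.94.

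Both cytoplasmic actins fell with abemaciclib in sgControl cells. In RB1KO cells neither was called over all 12 libraries (-0.16 ± 0.10 for ACTB and -0.21 ± 0.09 for ACTG1), but both were called lower when only the compared groups were fitted (adjusted p = 0.00754 and 1.5e-06 by DESeq2), and ACTG1 also with scaling by total counts (adjusted p = 0.00575). ACTB (chr7:5526409-5563902, GRCh38, minus strand), which encodes beta-actin, had 315765, 294370 and 259390 normalised counts in sgControl DMSO and 203370, 183323 and 161106 in sgControl abemaciclib. It had 341121, 353649 and 337213 in RB1KO DMSO and 342125, 301194 and 282779 in RB1KO abemaciclib. Every sgControl abemaciclib library lay below every other library, and the RB1KO groups overlapped. The sgControl change was -0.67 ± 0.10 on the log2 scale (estimate ± SE, n = 3 per group, adjusted p = 1.77e-11 by DESeq2), or 1.59-fold lower, and the interaction was 0.51 ± 0.14.

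ACTG1, which encodes gamma-actin, followed at 181818 ± 25634 normalised counts (mean ± SD) in sgControl DMSO, 112415 ± 7314 in sgControl abemaciclib, 223028 ± 11768 in RB1KO DMSO and 192558 ± 6566 in RB1KO abemaciclib. Its sgControl change was -0.69 ± 0.09 and its interaction 0.48 ± 0.13. In abemaciclib RB1KO cells had 1.69-fold more ACTB and 1.71-fold more ACTG1 than sgControl cells. In DMSO the differences were 0.25 ± 0.10 and 0.29 ± 0.09, and the ACTB call (adjusted p = 0.0338 by DESeq2) was lost in edgeR (0.25) and when any 1 of 5 libraries was left out: sgControl DMSO replicates 2 (0.26) and 3 (0.17), and RB1KO DMSO replicates 1 (0.25), 2 (0.23) and 3 (0.26). The ACTG1 call was lost without RB1KO DMSO replicate 2 (0.25), and ACTG1 was called lower in the RB1KO response without sgControl DMSO replicate 3 (-0.21).

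Of the 4 proteins that bind monomers or turn filaments over, the pair that feeds filament growth and severing fell in sgControl cells and the thymosins rose in RB1KO cells. Profilin, PFN1, which hands monomers to growing filaments, went from 41473 ± 6841 to 28596 ± 1158 normalised counts in sgControl cells (-0.54 ± 0.09) and was at 41248 ± 1387 and 39023 ± 1635 in RB1KO cells. Cofilin, CFL1, which severs old filaments, changed by -0.41 ± 0.10 in sgControl cells, and its interaction of 0.20 ± 0.15 was not called, except without sgControl DMSO replicate 3 (0.32) or with scaling by total counts (0.33). Without that library CFL1 was also called lower in RB1KO cells, both between genotypes in DMSO (-0.22) and in the response to the drug (-0.21). The RB1KO response of CFL1 was called lower too with only the compared groups fitted (-0.22) or with scaling by total counts (-0.21).

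TMSB4X, thymosin beta-4, which holds actin as monomers, had 5387, 4236 and 4397 normalised counts in sgControl DMSO, 4252, 4589 and 4960 in sgControl abemaciclib, and 4383, 4602 and 4976 in RB1KO DMSO. In RB1KO abemaciclib it had 9461, 7969 and 9688. Only the last group stood apart, and it did not overlap the other 3. The RB1KO change was 0.96 ± 0.10, the sgControl change -0.02 ± 0.10, and the interaction 0.98 ± 0.14. TMSB10, a second thymosin, rose by 0.40 ± 0.11 in RB1KO cells. Its interaction (0.34 ± 0.16) was not called, but was called without sgControl DMSO replicate 2 (0.40) or 3 (0.46), or sgControl abemaciclib replicate 1 (0.39). It was also called with scaling by total counts (0.47) and with a replicate block (0.33). Its difference between genotypes in abemaciclib (0.25 ± 0.11, adjusted p = 0.046 by DESeq2) was no longer called when any 1 of 8 libraries was left out, sgControl abemaciclib replicates 2 and 3 and all 6 RB1KO libraries, where it ranged from 0.19 to 0.26.

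Among the nucleation and capping genes, CAPZB moved in opposite directions in the 2 genotypes. It encodes the beta subunit of the capping protein that closes the fast-growing filament end. It had 17234, 15378 and 13853 normalised counts in sgControl DMSO and 24131, 21949 and 21968 in sgControl abemaciclib, and 12591, 13796 and 13321 in RB1KO DMSO and 10862, 10358 and 10883 in RB1KO abemaciclib. The groups of neither genotype overlapped. The change was 0.55 ± 0.08 in sgControl cells, -0.31 ± 0.08 in RB1KO cells and -0.86 ± 0.11 as the interaction, and in abemaciclib RB1KO cells had 2.12-fold less. In DMSO RB1KO cells had 1.17-fold less, a call that was lost without RB1KO DMSO replicate 1 (-0.19). The Arp2/3 complex subunits ARPC2 and ARPC5, which belong to the machinery that branches filaments, fell in sgControl cells by 0.30 and 0.24 on the log2 scale. ARPC5 was called positive in the interaction (0.25 ± 0.07), while ARPC2 (0.21 ± 0.11) was not, except without sgControl DMSO replicate 3 (0.27) or with scaling by total counts (0.34). The ARPC2 difference between genotypes in abemaciclib (0.15 ± 0.07) was called without that library too (0.15).

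The 7 crosslinking and bundling proteins did not move together: abemaciclib raised 4 and lowered 1 in sgControl cells, and 3 of the 4 interactions called were negative. Over all genes 24.8% were called higher and 24.6% lower in the sgControl response, and 21.0% and 20.2% in the interaction. TAGLN, transgelin, is a smooth muscle protein that stabilises bundles, and its counts were low in these cells. It had 51.2, 43.2 and 52.3 normalised counts in sgControl DMSO, 169, 171 and 148 in sgControl abemaciclib, 31.4, 13.2 and 39.8 in RB1KO DMSO, and 29.4, 26.3 and 30.3 in RB1KO abemaciclib. The sgControl abemaciclib libraries were far above all others. The change was 1.73 ± 0.24 in sgControl cells and 0.04 ± 0.31 in RB1KO cells, with an interaction of -1.69 ± 0.39. TAGLN exons overlap those of PCSK7 on the opposite strand and of an unnamed gene on the same strand. In DMSO it was 1.75-fold lower in RB1KO cells, but not without sgControl DMSO replicate 3 (-0.76) or RB1KO DMSO replicate 2 (-0.45).

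CNN3, the acidic calponin, had 1643, 1708 and 1688 normalised counts in sgControl DMSO and 3440, 3734 and 3331 in sgControl abemaciclib. In RB1KO cells it had 1025, 997 and 1133 in DMSO and 1429, 1356 and 1312 in abemaciclib. It rose in both genotypes, by 1.06 ± 0.07 and 0.38 ± 0.07, and more in sgControl cells (interaction -0.68 ± 0.10). ACTN1, an alpha-actinin of stress fibres, rose by 0.51 ± 0.06 in sgControl cells with an interaction of -0.41 ± 0.09. Its paralogue ACTN4 changed by -0.03 ± 0.07 and -0.10 ± 0.07 in the 2 genotypes. Scaling by total counts called ACTN4 lower in sgControl cells (-0.16). TAGLN2, the abundant epithelial transgelin, fell from 75534 ± 10178 to 47982 ± 1792 normalised counts in sgControl cells and was at 86241 ± 3239 and 85384 ± 941 in RB1KO cells.

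FLNA, filamin A, which crosslinks filaments into networks and ties them to membrane receptors, differed by genotype. It had 52995, 68400 and 61711 normalised counts in sgControl DMSO and 56340, 56533 and 48074 in sgControl abemaciclib, against 101677, 110363 and 96651 in RB1KO DMSO and 101582, 109461 and 103236 in RB1KO abemaciclib. All 6 RB1KO libraries lay above all 6 sgControl libraries. The differences were 0.75 ± 0.09 in DMSO and 0.97 ± 0.09 in abemaciclib. CNN2 was 1.30-fold higher in RB1KO cells in DMSO. Its rise with abemaciclib in sgControl cells (0.24 ± 0.09) was lost without sgControl DMSO replicate 3 (0.15) or sgControl abemaciclib replicate 1 (0.20), and its groups overlapped. The lower ACTN1 level of RB1KO cells in abemaciclib (-0.14 ± 0.06, adjusted p = 0.0429 by DESeq2) was not called when any 1 of 8 libraries was left out, sgControl abemaciclib replicates 1 and 2 and the 6 RB1KO libraries, where it ranged from -0.14 to -0.11.

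**Figure D4:**
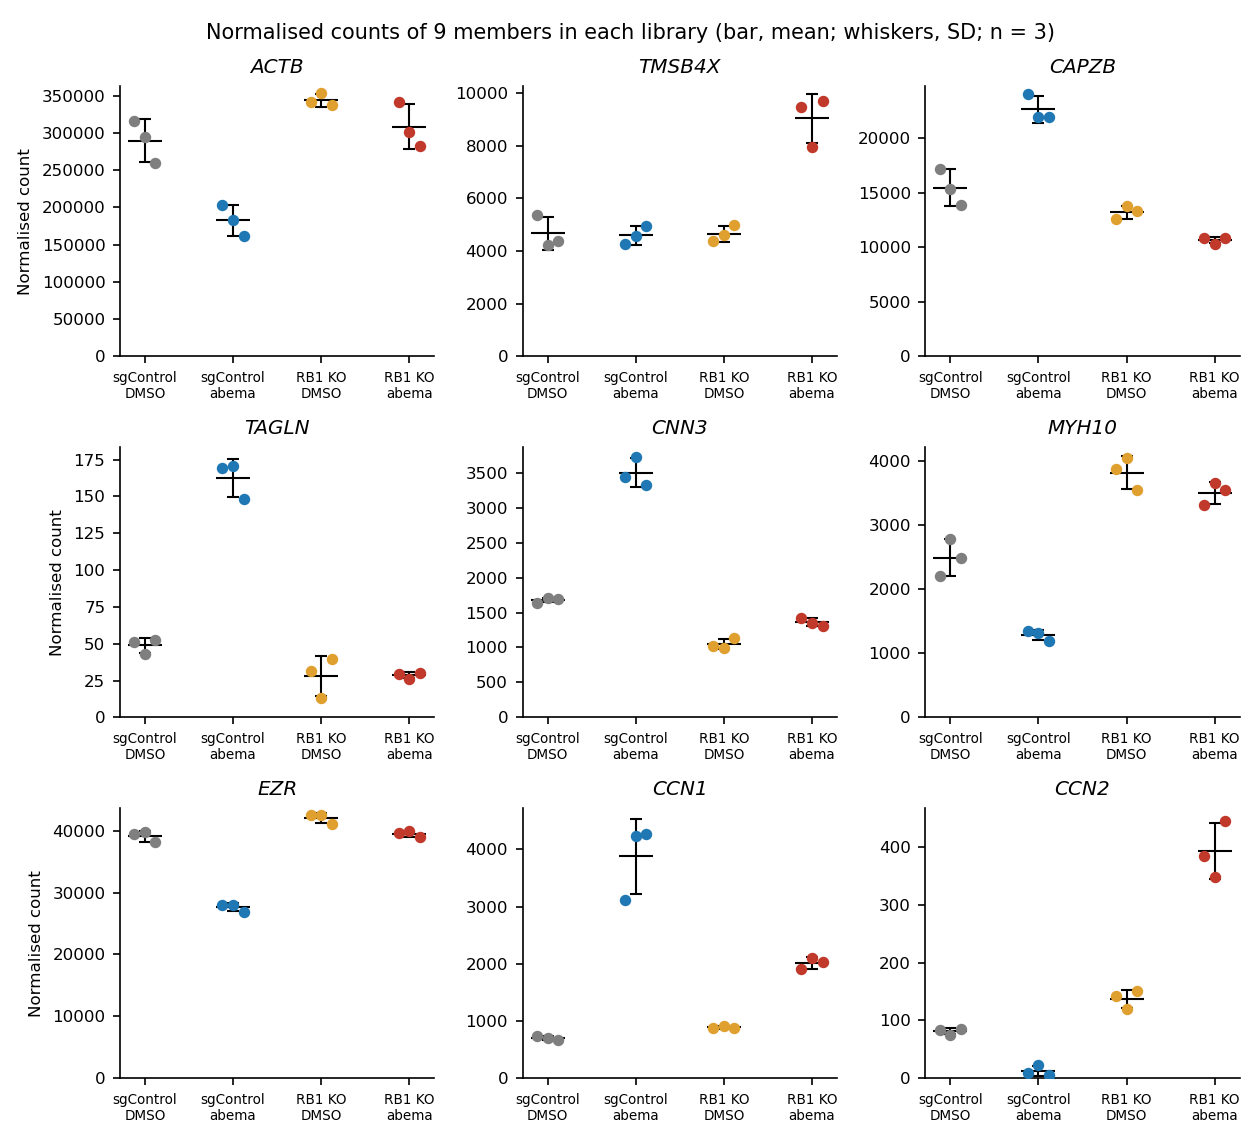
Normalised counts of 9 members in the 12 libraries, by group on the x axis and each with its own y axis from 0, with points for libraries, bars for means and whiskers for SD (n = 3). CCN1 is highest in sgControl abemaciclib, at 3123 to 4277, where CCN2 is lowest, at 6.17 to 22.1, and TMSB4X stands apart in RB1KO abemaciclib.

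Tropomyosins lie along filaments and set which myosins and turnover factors reach them. TPM3 fell in sgControl cells from 61631, 57542 and 53582 to 38268, 35209 and 35299 normalised counts, and had 60152, 64076 and 61717 in RB1KO DMSO and 61488, 56780 and 59557 in RB1KO abemaciclib. The sgControl abemaciclib group lay below the other 3. Its change was -0.67 ± 0.06 and its interaction 0.60 ± 0.09. TPM4 fell in both genotypes, by 0.59 and 0.20 on the log2 scale, with an interaction of 0.39 ± 0.05. TPM1 was called in neither drug comparison, and its difference between genotypes in abemaciclib (-0.16 ± 0.05) was lost without RB1KO abemaciclib replicate 2 (-0.13). TPM2, mostly a muscle gene, had only 2.64 to 25.2 normalised counts and was not called, although its difference between genotypes in abemaciclib was called without sgControl abemaciclib replicate 2 (1.68, against 1.10 ± 0.60 with it).

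The heavy chains of non-muscle myosin II, the motor that contracts actin filaments, differed in direction. MYH10 (myosin IIB) had 2216, 2784 and 2487 normalised counts in sgControl DMSO, 1349, 1324 and 1194 in sgControl abemaciclib, 3884, 4047 and 3548 in RB1KO DMSO, and 3324, 3660 and 3545 in RB1KO abemaciclib. Its fall in sgControl cells was 1.94-fold (-0.95 ± 0.09), its interaction was 0.83 ± 0.13, and RB1KO cells had 1.53-fold more in DMSO and 2.72-fold more in abemaciclib. MYH14 (myosin IIC) rose in both genotypes, with means of 15578 ± 1114 and 25648 ± 1635 without and with the drug in sgControl cells and 21159 ± 1297 and 31100 ± 1022 in RB1KO cells, and its interaction of -0.16 ± 0.10 was not called. MYH9 (myosin IIA) was not called for the drug in either genotype and was 1.43-fold and 1.31-fold higher in RB1KO cells in DMSO and in abemaciclib.

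The light chains split as well. The regulatory light chain MYL12A fell in sgControl cells (-0.34 ± 0.08) and was positive in the interaction (0.39 ± 0.11), while MYL12B, its near-identical neighbour, rose (0.32 ± 0.08) and was 1.42-fold lower in RB1KO cells in abemaciclib. The exons of both overlap those of the antisense gene MYL12-AS1, and reads shared between the near-identical pair make these values uncertain. MYL12A was also called lower between genotypes in DMSO without sgControl DMSO replicate 3 (-0.19). MYL6, the essential light chain, was called higher in sgControl cells (0.32 ± 0.11) but not without sgControl DMSO replicate 2 (0.26) or 3 (0.20) or sgControl abemaciclib replicate 1 (0.27), and its lower level in RB1KO cells in abemaciclib (-0.27 ± 0.11) was not called without sgControl abemaciclib replicate 1 (-0.22) or 3 (-0.27) or RB1KO abemaciclib replicate 2 (-0.24) or 3 (-0.26). MYL9, a muscle-type light chain at 10.6 to 44.3 normalised counts, fell in sgControl cells (-1.14 ± 0.38), a call that was lost without sgControl DMSO replicate 1 (-0.96) or sgControl abemaciclib replicate 2 (-0.98). Its difference between genotypes in abemaciclib (0.80 ± 0.40) was called in edgeR (0.79) and without sgControl abemaciclib replicate 3 (1.15) or RB1KO abemaciclib replicate 3 (1.03).

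Of the adhesion and membrane linkers, EZR was the 1 called for the drug in sgControl cells. Ezrin joins the cortex to the membrane of microvilli, and its paralogue moesin, MSN, does the same mainly in other cell types. EZR had 39451, 39796 and 38111 normalised counts in sgControl DMSO, 28055, 28038 and 26830 in sgControl abemaciclib, 42552, 42449 and 41074 in RB1KO DMSO, and 39549, 39959 and 38946 in RB1KO abemaciclib. Its sgControl libraries with the drug lay well below the others (-0.50 ± 0.04), and its interaction was 0.41 ± 0.05. MSN was not called for the drug, except as lower in sgControl cells with scaling by total counts (-0.18). It was 1.29-fold and 1.27-fold higher in RB1KO cells in DMSO and in abemaciclib. ZYX, zyxin, which marks focal adhesions under tension, was 1.30-fold and 1.27-fold higher.

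VCL, vinculin, which couples integrins and cadherins to actin, was 1.22-fold higher in RB1KO cells in DMSO. It was called lower with abemaciclib in RB1KO cells (-0.21 ± 0.09, adjusted p = 0.0454 by DESeq2) but not when any 1 of 8 libraries was left out, where it ranged from -0.23 to -0.19: all 3 sgControl abemaciclib and all 3 RB1KO DMSO libraries and RB1KO abemaciclib replicates 1 and 3. Its interaction (-0.22 ± 0.12) was called without sgControl DMSO replicate 2 (-0.30). The small EZR difference in DMSO (0.10 ± 0.04, adjusted p = 0.0241 by DESeq2) was lost in edgeR (0.10), with scaling by total counts (0.08), with only the compared groups fitted (0.10), and without sgControl DMSO replicate 3 (0.08), sgControl abemaciclib replicate 1 (0.10) or 2 (0.10), or RB1KO DMSO replicate 1 (0.10) or 2 (0.10).

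Of the transcriptional regulators, SRF was called lower and MRTFA higher with the drug in sgControl cells. Between genotypes, MRTFA was called higher in RB1KO cells in DMSO, and SRF and TEAD1 in abemaciclib. SRF, the factor that binds CArG boxes, had 3141, 3184 and 3172 normalised counts in sgControl DMSO, 2389, 2540 and 2717 in sgControl abemaciclib, 3235, 3496 and 3299 in RB1KO DMSO and 2777, 3089 and 3048 in RB1KO abemaciclib. In neither genotype did the groups overlap, and the changes were -0.31 ± 0.06 and -0.17 ± 0.06. The SRF interaction was not called, except with scaling by total counts (0.28). The RB1KO call (adjusted p = 0.0315 by DESeq2) was lost without sgControl DMSO replicate 2 (-0.17), sgControl abemaciclib replicate 2 (-0.17), RB1KO DMSO replicate 2 (-0.14) or 3 (-0.18), or RB1KO abemaciclib replicate 1 (-0.13). MRTFA, the SRF cofactor that binds actin monomers, rose from 1685 ± 121 to 2119 ± 67.6 in sgControl cells, with an interaction of -0.37 ± 0.10.

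YAP1 had 1782 to 2476 normalised counts over all 12 libraries and was called in none of the 5 comparisons, with differences from -0.12 to 0.15. TEAD1, a DNA-binding partner of YAP, was called only between genotypes in abemaciclib (0.30 ± 0.12). That call was lost without sgControl abemaciclib replicate 1 (0.26) or 3 (0.26) or RB1KO abemaciclib replicate 2 (0.26) or 3 (0.30). TEAD1 was called lower in the sgControl response with scaling by total counts (-0.36) or without sgControl DMSO replicate 1 (-0.37).

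Promoter sequences of members were searched for the element that SRF binds. RefSeq windows of 300 bases on GRCh38.p14, 250 before and 50 after each annotated start, were matched by symbol for 37 members, with 60 windows in all. ACTB, TAGLN, MYL9, TEAD1 and CCN1 had no entry. A CArG box, searched as CC, 6 bases that are each A or T, and GG, which reads alike on both strands, was found for SRF, ACTG1, FLNA, CNN2, TPM4 and ACTN1. That was 6 of the 60 windows, or 10.0%, against 1.30% of all 34943 windows in the table. The members include SRF and its targets by choice, so this share is not independent of how the list was made. In the stretches below, read on the strand of the gene, the capitals mark the CArG boxes. The SRF stretch covers the 50 bases before the start and holds 2 boxes, and the others extend 20 bases to each side of the box.

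SRF, chr6:43171219-43171268, plus strand: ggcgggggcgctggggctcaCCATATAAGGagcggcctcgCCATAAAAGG
ACTG1, chr17:81512864-81512913, minus strand: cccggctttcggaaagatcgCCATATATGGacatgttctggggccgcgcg
FLNA, chrX:154374699-154374748, minus strand: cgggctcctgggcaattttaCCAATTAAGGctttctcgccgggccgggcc
CNN2, chr19:1026499-1026548, plus strand: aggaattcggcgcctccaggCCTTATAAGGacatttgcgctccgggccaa
TPM4, chr19:16067345-16067394, plus strand: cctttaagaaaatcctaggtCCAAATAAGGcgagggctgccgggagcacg

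None of the stretches overlaps an annotated exon except that of FLNA, which partly lies in an exon of a long non-coding RNA on the opposite strand. The first box base lies 30 and 10 bases before the start in SRF, 94 in ACTG1 and FLNA, 89 in CNN2, 173 in TPM4 and 171 in ACTN1. These 6 genes did not share a direction in sgControl cells: SRF, ACTG1 and TPM4 fell, CNN2 and ACTN1 rose, and FLNA was not called. A match describes letters in the window and not a bound site. A window without a match does not show that the gene lacks the element, because other forms and positions were not searched.

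The 7 target genes of YAP and TEAD included the largest responses of the 42, in opposite directions. CCN1 (chr1:85580761-85584589, plus strand), a secreted matricellular protein, had 733, 698 and 673 normalised counts in sgControl DMSO and 3123, 4232 and 4277 in sgControl abemaciclib. In RB1KO cells it had 878, 911 and 878 in DMSO and 1907, 2102 and 2032 in abemaciclib. The drug groups lay above the DMSO groups in both genotypes. The rise was 5.53-fold in sgControl cells (2.47 ± 0.11) and 2.26-fold in RB1KO cells (1.18 ± 0.11), with an interaction of -1.29 ± 0.15.

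CCN2 (chr6:131948176-131951372, minus strand), the close relative also known as connective tissue growth factor, had 83.8, 74.9 and 85.7 normalised counts in sgControl DMSO and 9.70, 22.1 and 6.17 in sgControl abemaciclib. In RB1KO cells it had 142, 119 and 150 in DMSO and 384, 349 and 445 in abemaciclib. The 4 groups did not overlap, and the drug groups were the lowest and the highest of them. CCN2 fell 6.37-fold in sgControl cells (-2.67 ± 0.29) and rose 2.87-fold in RB1KO cells (1.52 ± 0.18). The interaction was 4.19 ± 0.34 (adjusted p = 3.03e-34 by DESeq2), and RB1KO cells had 30.6-fold more in abemaciclib. Over all alternatives tried the interaction stayed between 3.83 and 4.91. CCN2 exons overlap those of LINC01013 on the opposite strand.

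ANKRD1, a muscle ankyrin repeat protein often used to read YAP activity, was at 0 to 2 counts in every sgControl library. It had 6.83, 4.41 and 5.68 normalised counts in RB1KO DMSO (4 to 5 counts per library) and 31.7, 25.3 and 27.2 in RB1KO abemaciclib (24 to 28 counts). The RB1KO groups did not overlap each other or the sgControl groups. The rise in RB1KO cells was 2.33 ± 0.62. Taking 3 counts per library as the floor, RB1KO cells had at least 2.31-fold more in DMSO and at least 9.87-fold more in abemaciclib, and no fold is given for sgControl cells. AXL, a receptor tyrosine kinase, was also near the floor: 8.38 to 17.6 normalised counts in sgControl DMSO, 0.886 to 3.23 in sgControl abemaciclib (1 to 3 counts) and 10.2 to 15.0 in the RB1KO groups. It was at least 4.30-fold lower with the drug in sgControl cells and at least 3.99-fold higher in RB1KO cells in abemaciclib. Its interaction was called, but not without sgControl DMSO replicate 2, sgControl abemaciclib replicate 2, RB1KO DMSO replicate 3 or RB1KO abemaciclib replicate 1, with fitted values there of 1.96, 1.90, 2.16 and 2.23 against 2.30.

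AJUBA, a LIM protein that restrains the Hippo kinases, fell in both genotypes, from 1787 ± 25.6 to 1118 ± 23.6 without RB1 loss and from 1833 ± 33.0 to 1579 ± 35.3 with it (interaction 0.46 ± 0.08). AMOTL2, a scaffold that binds YAP, and LATS2, the kinase that phosphorylates it, were called for the drug in neither genotype. They were 1.36-fold and 1.43-fold higher in RB1KO cells in DMSO and 1.18-fold and 1.21-fold higher in abemaciclib. The abemaciclib call of LATS2 was lost without sgControl abemaciclib replicate 1 (0.24) or 3 (0.26) or RB1KO abemaciclib replicate 3 (0.24), and AMOTL2 was called negative in the interaction without sgControl abemaciclib replicate 3 (-0.24, against -0.20 ± 0.10).

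The TEAD motif, searched as GGAATG with its complement CATTCC, was found in 14 member windows, 23.3% of 60, against 14.0% of all windows. Target genes of YAP and TEAD are among the members by choice, so this share too is not independent of the list. CCN2 and ANKRD1 were the members with 2 or more matches in a window, which 1.37% of all windows have. Both upstream regions are shown because they carry the repeated motif, in capitals, and because these genes had the widest separation of the genotypes in abemaciclib. They cover the 250 bases before the start and overlap no annotated exon.

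CCN2, chr6:131951373-131951622, minus strand: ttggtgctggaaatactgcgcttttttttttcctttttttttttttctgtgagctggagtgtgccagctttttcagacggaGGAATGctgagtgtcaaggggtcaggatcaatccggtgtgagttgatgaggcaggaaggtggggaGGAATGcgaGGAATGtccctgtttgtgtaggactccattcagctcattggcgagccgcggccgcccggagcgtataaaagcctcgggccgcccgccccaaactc
ANKRD1, chr10:90921088-90921337, minus strand: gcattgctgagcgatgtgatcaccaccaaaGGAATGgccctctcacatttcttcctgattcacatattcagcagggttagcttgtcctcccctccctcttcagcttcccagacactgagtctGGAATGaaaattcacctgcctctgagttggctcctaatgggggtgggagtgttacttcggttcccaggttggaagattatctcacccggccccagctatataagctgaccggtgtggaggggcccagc

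In CCN2 the matches start 169, 104 and 95 bases before the start, and in ANKRD1 220 and 128 bases before it. Among the other target genes AMOTL2, AJUBA, AXL and LATS2 had 1 match each, and so did 8 members of other roles. As with the CArG boxes, members with a match moved in both directions.

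**Figure D5:**
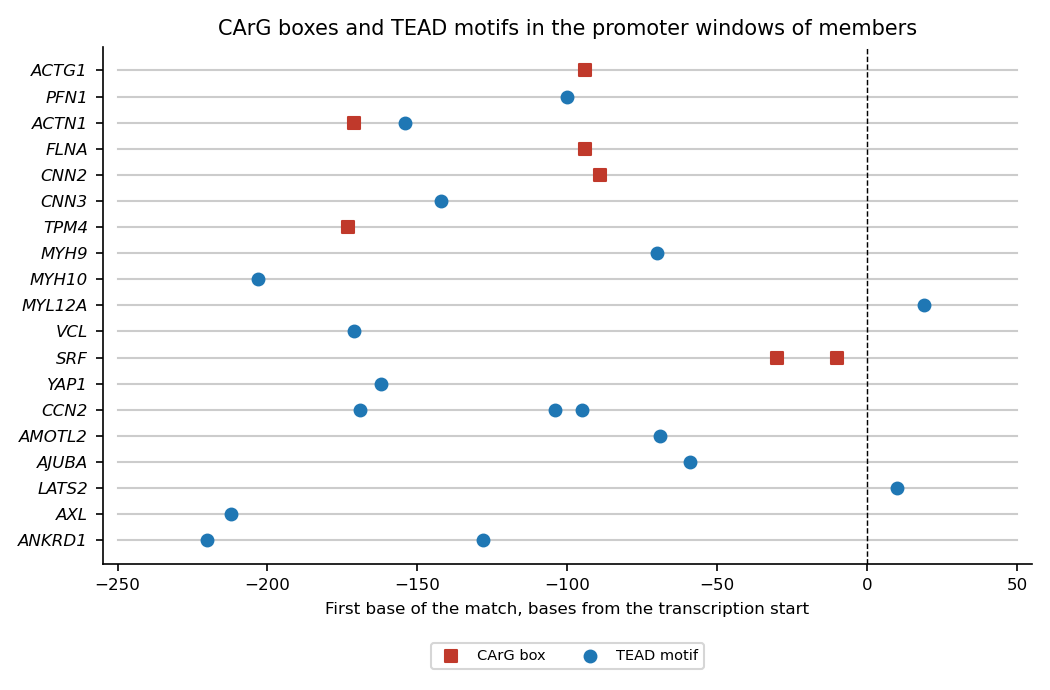
Position of each CArG box (red squares) and TEAD motif (blue circles), as bases from the transcription start on the x axis, in the promoter windows of the 19 members with a match, each a grey line from 250 bases before to 50 after the start. CCN2 has 3 TEAD motifs and ANKRD1 2, and SRF has 2 CArG boxes.

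Ratios between paralogues within a library show changes in composition. With 3 libraries against 3 the exact two-sided permutation test cannot go below p = 0.1, and the interaction cannot go below 0.005 over 400 assignments. The interaction test permutes genotype labels within each treatment. It can reach 0.005 only where the genotype difference changes sign between treatments, as in EZR/MSN and TPM4/TPM1. The ratio ACTG1/ACTB was 0.626 ± 0.028 in sgControl DMSO and 0.619 ± 0.045 in sgControl abemaciclib, and the largest of its differences was 0.05 on the log2 scale. EZR/MSN was 11.6 ± 0.7, 8.44 ± 0.52, 9.65 ± 0.06 and 9.45 ± 0.09 in sgControl DMSO, sgControl abemaciclib, RB1KO DMSO and RB1KO abemaciclib. Its interaction of 0.43 had an exact permutation p of 0.005 (0.02 adjusted over 8 ratios), the smallest this test can give. TPM4/TPM1 was 2.90 ± 0.10, 1.86 ± 0.05, 2.56 ± 0.05 and 2.33 ± 0.09 in the same order of groups, with an interaction of 0.51 (exact permutation p = 0.005, adjusted 0.02).

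MYH10/MYH9 was 0.0614 ± 0.0028 in sgControl DMSO and 0.0308 ± 0.0015 in sgControl abemaciclib, against 0.0660 ± 0.0010 and 0.0637 ± 0.0031 in RB1KO cells. MYH14/MYH9 rose alike in the 2 genotypes, by 0.67 and 0.63 on the log2 scale, without overlap between the drug and DMSO libraries. CCN2/CCN1 was 0.116 ± 0.010 in sgControl DMSO and 0.00326 ± 0.00190 in sgControl abemaciclib, while in RB1KO cells it was 0.154 ± 0.021 and 0.195 ± 0.027. Its interaction was 5.68 (exact permutation p = 0.1, adjusted 0.133). The interactions of TMSB10/TMSB4X (-0.64) and ACTN4/ACTN1 (0.35) had an exact permutation p of 0.085 each.

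Per kilobase of the canonical transcript, levels over the members ran from ACTB, at 159957 normalised counts in sgControl DMSO, to ANKRD1. CFL1 (108170), ACTG1 (94746) and TMSB10 (73785) followed ACTB, and the SDs of ACTB, CFL1, ACTG1 and TMSB10 were 15706, 19969, 13358 and 15343 (n = 3), so that CFL1 and ACTG1 differed by less than the SD of CFL1. Of the myosin heavy chains MYH9 was highest (5455), then MYH14 (2253) and MYH10 (324). YAP1 was at 413 and TEAD1 at 165. These levels assume reads along the whole transcript, and the sources used here name both a full-length and a 3-prime kit.

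Other genes of the same pathways were counted in lists. Of 39 further actin filament genes, 10 were raised by the drug and 17 lowered in the sgControl genotype, and 14 interactions were positive and 7 negative. Beside this and the following lists stand the shares over all genes, 24.8% higher and 24.6% lower in the sgControl response and 21.0% and 20.2% in the interaction, so the genes raised here were near the background. GSN, gelsolin, which cuts and caps filaments, rose 1.85 ± 0.06 on the log2 scale in sgControl cells, from 3764, 3491 and 3232 to 12562, 12837 and 12251 normalised counts. It had 4396 to 4525 in RB1KO DMSO and 3960 to 4109 in RB1KO abemaciclib (interaction -2.00 ± 0.08). LASP1, a LIM and SH3 protein at filament ends, rose by 1.75 ± 0.06 with an interaction of -1.73 ± 0.09. DIAPH3, a formin that lies like RB1 on chromosome 13, fell by 2.56 on the log2 scale, SPTBN1, a spectrin, fell by 1.27, and CFL2, the muscle cofilin, had an interaction of 1.50 ± 0.18.

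Of 11 tested SRF cofactors and smooth muscle type SRF targets, 1 was higher and 5 lower after the drug without RB1 loss, with 24.8% and 24.6% of all genes in these directions, and 6 interactions were positive and 1 negative. ACTA2, smooth muscle actin, had 692, 578 and 486 normalised counts in sgControl DMSO and 139, 128 and 149 in sgControl abemaciclib, against 812 to 887 and 788 to 898 in RB1KO DMSO and abemaciclib (interaction 2.04 ± 0.18). It fell where TAGLN, another smooth muscle gene, rose. FHL2 fell by 0.86 on the log2 scale (interaction 0.65), and ELK1 rose by 0.44 (interaction -0.44).

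All 8 SRF and TCF immediate early genes, which SRF controls with TCF cofactors in place of MRTF, rose in both genotypes, where 24.8% and 15.0% of all genes did, with median log2 fold changes of 2.39 and 2.46. FOS went from 254, 524 and 706 to 3336, 5208 and 5212 normalised counts in sgControl cells (3.21 ± 0.34), and FOSB rose by 3.00 ± 0.20. Among the interactions, EGR1 (1.69 ± 0.33) and IER2 (0.49 ± 0.19) were positive and EGR3 (-0.60 ± 0.13) negative. The IER2 interaction was lost without sgControl DMSO replicate 3 (0.42), sgControl abemaciclib replicate 1 (0.33), RB1KO DMSO replicate 2 (0.48) or RB1KO abemaciclib replicate 2 (0.40). In the first sgControl DMSO library EGR1 and FOS were lower than in the other two, and without it the FOS interaction (0.83) was also called (1.15).

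Among 19 Hippo kinases and YAP partners, 6 were called higher and 9 lower in the sgControl response, and 8 interactions were positive and 4 negative. The 6 and the 4 were near the background shares of 24.8% and 20.2%. TEAD4 fell from 5493, 5592 and 5237 to 1621, 1676 and 1724 normalised counts (-1.70 ± 0.06, interaction 1.34 ± 0.08), where TEAD1 was not called and TEAD3 had an interaction of -0.45 ± 0.08. AMOTL1 fell by 1.75 on the log2 scale and MAP4K4 had an interaction of 1.57 ± 0.12. WWC1 rose by 0.98 ± 0.07, with an interaction of -1.04 ± 0.11, and NF2, merlin, by 0.55 ± 0.09, with an interaction of -0.40 ± 0.12 that was not called with scaling by total counts (-0.26).

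Of the 15 tested further YAP and TEAD target genes, the sgControl response called 4 higher and 7 lower, and 7 interactions were positive and 3 negative, of which the 4 and the 3 were near the background shares of 24.8% and 20.2%. IGFBP3 had 42.8, 38.8 and 54.2 normalised counts in sgControl DMSO and 593, 766 and 694 in sgControl abemaciclib, against 48.5 to 66.9 and 45.3 to 70.5 in RB1KO DMSO and abemaciclib (interaction -3.85 ± 0.29). ASAP1 and GADD45A fell by 1.31 and 1.26 on the log2 scale, with interactions of 1.53 and 1.30. NUAK2 rose in both genotypes (0.78 ± 0.10 in sgControl cells), and ARHGEF17 had an interaction of -0.78 ± 0.16. In RB1KO cells 1 of the 14 genes tested in this list rose and 1 fell, where 15.0% of all genes were called higher and 15.1% lower.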

How the data were processed

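RNA-seq libraries of 12 samples were made, and the authors deposited 1 table of raw counts per gene, made from trimmed reads with STAR 2.7.5b on hg38 and featureCounts 2.0.1 with GENCODE 35. The labels name a directional full-length kit and the study's methods a 3-prime kit, so levels per length are tentative. Of 60656 rows, 44 without a gene name were left out. Totals ranged from 39907318 to 81636393 counts, and counting floors of 3 counts per library cover counting error only.

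Groups came from the sample labels. Counts were fitted with DESeq2 1.42.0 in R 4.3.3 (1 mean per group over all 12 libraries, size factors by median of ratios, Wald tests, Benjamini-Hochberg adjustment over all genes, threshold 0.05) for 5 comparisons, and normalised counts are counts divided by size factors. Ratios of paralogues were compared by exact two-sided permutation tests. Promoter windows were RefSeq sequences. Alternatives were edgeR 4.0.16, scaling by total counts, no independent filtering, at least 10 counts in 3 libraries, only the groups compared, a replicate block, each library left out, and 0.5 counts added in the ratios.

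All members are named. RB1 is named as a check of the labels, and of each further list, per direction, the 2 genes with the largest called sgControl response or interaction at a mean of 100 or more normalised counts. The members and lists were chosen with earlier results of these data known. Same-numbered libraries deviated together, with all 3 correlations over 0.1 (0.15, 0.26 and 0.11), only for RB1KO against sgControl in abemaciclib. Libraries within a group differed beyond sampling noise. One further gene list is not reported here.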

Additional observations from a re-analysis of the deposited data

Results flagged for a closer look

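The response to abemaciclib differed between RB1KO and sgControl cells, by the interaction term of the DESeq2 fit at an adjusted p under 0.05, for 20 members and 21 of the further genes named. Over all genes 21.0% were called higher and 20.2% lower in this test, against 33.3% and 14.3% of the members. The further genes were named for a called response or interaction, so their number follows largely from that rule. Each value is the RB1KO log2 fold change minus the sgControl one. Among the members, positive values were found for CCN2 (4.19), AXL (2.30, with a group at the counting floor), TMSB4X (0.98), MYH10 (0.83), TAGLN2 (0.64), TPM3 (0.60), ACTB (0.51), ACTG1 (0.48), PFN1 (0.46), AJUBA (0.46), EZR (0.41), TPM4 (0.39), MYL12A (0.39) and ARPC5 (0.25). Negative values were found for TAGLN (-1.69), CCN1 (-1.29), CAPZB (-0.86), CNN3 (-0.68), ACTN1 (-0.41) and MRTFA (-0.37).

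Of the further genes, DIAPH3 (2.57), ACTA2 (2.04), EGR1 (1.69), MAP4K4 (1.57), ASAP1 (1.53), CFL2 (1.50), TEAD4 (1.34), GADD45A (1.30), SPTBN1 (1.21), AMOTL1 (1.16), FHL2 (0.65) and IER2 (0.49) were positive. IGFBP3 (-3.85), GSN (-2.00), LASP1 (-1.73), WWC1 (-1.04), ARHGEF17 (-0.78), EGR3 (-0.60), TEAD3 (-0.45), ELK1 (-0.44) and NF2 (-0.40) were negative. CCN2 and CAPZB were the members called in opposite directions in the 2 genotypes.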

How the results depend on the processing

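Over all alternatives, 3581 of 3734 calls of a member in a comparison stayed as they were, 87 were lost, 66 were gained and none reversed. Scaling by total counts changed 27 of 210, and edgeR changed 3 of 210. Members lower with abemaciclib in RB1KO cells numbered 5, against 3 without independent filtering, 10 with only the groups compared, and 3 to 8 with 1 library left out. Members lower in RB1KO cells in abemaciclib numbered 8, against 5 with scaling by total counts and 5 to 8 with 1 library left out, the 5 without RB1KO abemaciclib replicate 2. No fit of only the groups compared exists for the interaction.

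The replicate block changed no call of RB1KO against sgControl in abemaciclib, where the numbers deviated together. In the sgControl response replicates 1 and 2 also correlated (0.25 and 0.22), but replicate 3 did not (-0.08). The block gave 10 higher and 18 lower in the sgControl response, 7 and 7 in the RB1KO response, and 15 and 7 in the interaction. The low-count members TPM2, MYL9, AXL and ANKRD1 had the widest errors. No ratio changed its side of the threshold.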
